A study of Homo sapiens with 52 samples.

Results

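LAQ824 is a pan-inhibitor of histone deacetylases (HDACs). Its effect on gene expression after 6 h was read from 6 poly-A RNA-seq columns: 1 at 5 µM, 1 at 0.5 µM and 4 of the DMSO vehicle. These 6 samples were selected by their titles from a screen of 44 samples, in a series of 52. The cells were a fusion-positive rhabdomyosarcoma (FP-RMS) line that carries the PAX3-FOXO1 fusion, a childhood tumour of the skeletal muscle lineage. The titles name the line RH41 while the cell-line label reads RH4, and the data were not used to settle which it was. All 6 samples were grown in DMEM with serum, none carried a further genetic change by its label, and the vehicle stood at 0.2% in 2 columns (called high) and at 0.1% in the other 2 (called low). Both LAQ824 columns and 1 column of each DMSO concentration came from flow cell H144EBGXX, and the remaining 2 DMSO columns from flow cell C4JM1ACXX. The whole reads behind the values numbered 27131203 at 5 µM, 31965238 at 0.5 µM and 16772069 to 22400978 in the DMSO columns. In the sentences that follow, LAQ824 values are given for 5 and then 0.5 µM, and DMSO values for 0.2% replicates 1 and 2 and then 0.1% replicates 1 and 2, in TPM, each transcript's length-corrected share of its library.

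Histone deacetylases remove acetyl groups from lysines of histone tails and of many other proteins. They work inside larger complexes such as NuRD, SIN3, CoREST and NCoR/SMRT, several of which are brought to genes by repressors such as REST, and their inhibition leaves chromatin more acetylated within hours. Acetylated lysines are written by acetyltransferases such as p300 and CBP and read by bromodomain proteins. Histone acetylation itself was not measured in these samples, so the text below describes transcript levels alone.

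The lineage of the cells was visible in the DMSO columns. MYOD1, the master regulator of skeletal muscle, stood at 647, 641, 639.7 and 648 TPM, the intermediate filament gene DES at 413, 414, 443 and 425 TPM and the muscle cadherin CDH15 at 317, 319, 327 and 339 TPM. Of the FP-RMS markers, FGFR4 stood at 904 to 981 TPM under DMSO, ALK at 36.4 to 38.2 TPM and TFAP2B at 46.7 to 51.2 TPM, whereas CDH3 was near the lower limit at 0.280 to 0.389 TPM. Of the defining genes of other lineages, EPCAM of epithelium did not exceed 0.189 TPM and PECAM1 of endothelium did not exceed 0.147 TPM. Both were named after their values were seen, and other markers of these lineages were expressed. Under DMSO the list of epithelial genes summed to 166.9 to 189.6 TPM and that of endothelial genes to 87.2 to 97.6 TPM. PTPRC of blood cells was listed at 0 in all 6 columns, from which no level is read.

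Because LAQ824 has 1 sample a dose, the 2 doses were taken as 2 samples of 1 group, and the 2 columns of a DMSO concentration were averaged into 1 sample, since they differed by no more than sampling noise once a shift shared by each flow cell was allowed for. Nothing in the labels says that the samples were separate cultures, so the p-values measure the spread between these samples, which may be technical. A gene was called where its adjusted p (limma, Benjamini-Hochberg) was below 0.05 and its mean log2(TPM + 1) differed by at least 1, and on this scale the change of a low gene is understated. Of 14680 genes tested, 2357 (16.1%) were higher under LAQ824 and 1931 (13.2%) were lower, with a median change of 0.06 over all genes. The change reached 4-fold for 450 of the higher and 346 of the lower genes, and 8-fold for 77 and 60.

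Genes that rose started low, and genes that fell started high. The median DMSO level was 3.99 TPM among genes called higher, 36.0 TPM among genes called lower and 21.6 TPM among all genes tested. Of the 1228 tested genes with a mean below 1 TPM under DMSO, 649 (52.9%) were called higher. The share called higher was 24.2% between 1 and 5 TPM, 16.3% between 5 and 20 TPM, 8.78% between 20 and 100 TPM and 3.03% at 100 TPM or more. The share called lower ran the other way, from 7.46% between 1 and 5 TPM to 18.5% at 100 TPM or more. Part of this gradient is built into the filter, because 796 tested genes were below 1 TPM in all 4 DMSO columns and passed through LAQ824 alone, and 517 of those were called higher. Among the 13611 genes at 1 TPM or more in 2 or more DMSO columns, 1745 were higher and 1931 lower, with a median of -0.03. That condition is one-sided, because it removed higher calls only and kept all 1931 lower calls. In the other direction, 458 tested genes were below 1 TPM in both LAQ824 columns, and 166 of those were called lower. A gene with a mean below 1 TPM under DMSO cannot fall by 1 on the log2(TPM + 1) scale, so none of the 1228 was called lower. Binned instead by the mean of both groups, 26.1% of genes between 1 and 5 TPM and 7.63% of genes at 100 TPM or more were called higher, against 11.9% and 9.61% called lower.

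**Figure D1:**
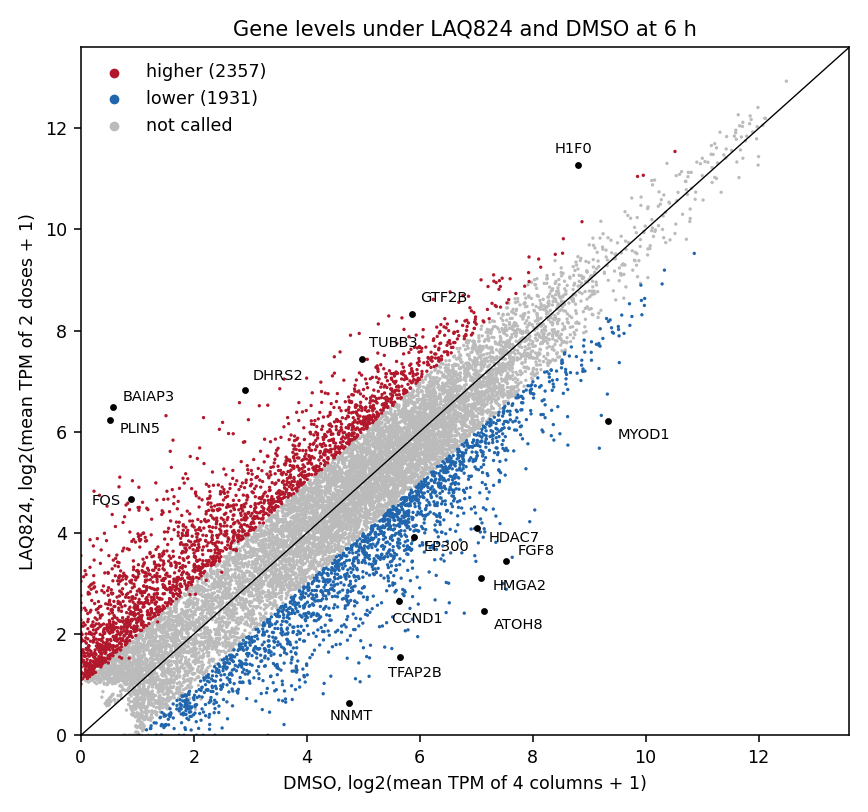
Mean level of each tested gene under DMSO (horizontal axis, log2 of the mean TPM of 4 columns plus 1) and under LAQ824 (vertical axis, log2 of the mean TPM of both doses plus 1), with genes called higher in red, lower in blue and the remaining genes in grey, and the line of equal level in black. Of 14680 genes, 2357 lie above and 1931 below at 2-fold or more, and the labelled BAIAP3 and PLIN5 leave the near-zero edge while ATOH8, HMGA2 and FGF8 fall from high DMSO levels.

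The highest rise belonged to BAIAP3, which encodes a Munc13-like protein of dense-core vesicle traffic. Its level was 80.5 and 97.02 TPM under LAQ824 against 0.553, 0.417, 0.419 and 0.552 TPM under DMSO, a log2 change of 5.91 ± 0.10 (adjusted p = 1.8e-06). The gene lies on chromosome 16 at 1383606-1399442 (hg19, plus strand) and overlaps TSR3, and reads of overlapping genes may be shared between them. PLIN5, a perilipin that coats lipid droplets in oxidative tissue, stood at 70.6 and 78.6 TPM against 0.374, 0.250, 0.468 and 0.605 TPM, a log2 change of 5.73 ± 0.11 (adjusted p = 2.0e-06). Both genes were almost silent in all 4 DMSO columns and at a level of 70 TPM or more at both doses. They passed the filter through LAQ824 alone and were picked as the largest rises, so the gap between the groups follows from that choice. Of the 14680 genes tested, 6577 had both LAQ824 values above all 4 DMSO values.

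DNAAF3, a factor that preassembles ciliary dynein arms, and TNNI3, the cardiac inhibitory troponin, are neighbours on chromosome 19 and rose together. DNAAF3 stood at 71.6 and 86.03 TPM under LAQ824 against 2.63, 1.47, 1.83 and 1.43 TPM under DMSO, and TNNI3 at 19.98 and 24.3 TPM against 0.543, 0.290, 0.388 and 0.293 TPM, with log2 changes of 4.83 ± 0.11 and 4.07 ± 0.12 (adjusted p = 2.5e-06 and 3.1e-06). The other large rises were in genes known from unlike cell types: HAP1, the huntingtin-associated protein of neurons (log2 change 4.59 ± 0.13), LLGL2, an epithelial polarity protein (4.42 ± 0.10) and HRH3, the histamine receptor of presynaptic neurons (4.41 ± 0.084). They also included REEP6, a shaper of the endoplasmic reticulum (4.22 ± 0.090), PMEL, the fibril protein of pigment cells (4.12 ± 0.077) and STC1, a secreted glycoprotein (4.04 ± 0.10). PPM1J, a protein phosphatase, rose by 4.12 ± 0.097. TNNI3, HAP1, LLGL2 and HRH3 were below 1 TPM in all DMSO columns and passed the filter through LAQ824 alone. The short-chain dehydrogenase DHRS2 stood at 88.5 and 138 TPM against 6.77, 7.45, 5.905 and 5.76 TPM (log2 change 3.90 ± 0.21), with the higher value at 0.5 µM.

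The deepest fall was that of ATOH8, a basic helix-loop-helix transcription factor, from 142, 141, 136 and 141 TPM under DMSO to 4.49 and 4.47 TPM under LAQ824, a log2 change of -4.69 ± 0.050 (adjusted p = 1.6e-06). DBX1, a homeobox factor of the embryonic neural tube, fell from 188, 188, 179.8 and 179.7 TPM to 5.74 and 7.07 TPM, and PRDM12, a zinc finger regulator of sensory neurons, from 184, 176, 173 and 175 TPM to 6.78 and 7.22 TPM. The DMSO columns lay close together for all 3 genes, and no LAQ824 value came within 100 TPM of them. The remaining large falls included genes of growth factor signalling and chromatin: FGF8, a secreted growth factor (log2 change -4.07 ± 0.085), SMAD1, the transducer of BMP signals (-4.04 ± 0.078), and HMGA2, a fetal chromatin architecture protein (-3.98 ± 0.061). KCTD15, which opposes the factor AP-2, fell as well (-4.01 ± 0.063). TFAP2B, which encodes an AP-2 protein and marks FP-RMS, fell with it (-4.10 ± 0.072), as did the nicotinamide methyltransferase NNMT (-4.11 ± 0.14), the somatostatin receptor SSTR5 (-3.94 ± 0.12) and the noncoding LOC101929504 (-4.12 ± 0.047). HMGA2, SMAD1 and SSTR5 overlap antisense or pseudogene entries, and the use of strand in counting is not stated.

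A total of 52 gene lists, chosen with earlier results of these data known, were then described by how many tested members were called, beside the shares of all genes tested (16.1% higher and 13.2% lower). The highest median was that of the neuronal genes under REST, 2.18 over 25 tested genes. Those with the lowest were the core regulatory factors, 6 of 6 lower with a median of -2.63, the neuromuscular junction genes at -1.38 and the histone acetyltransferases at -1.29.

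**Figure D2:**
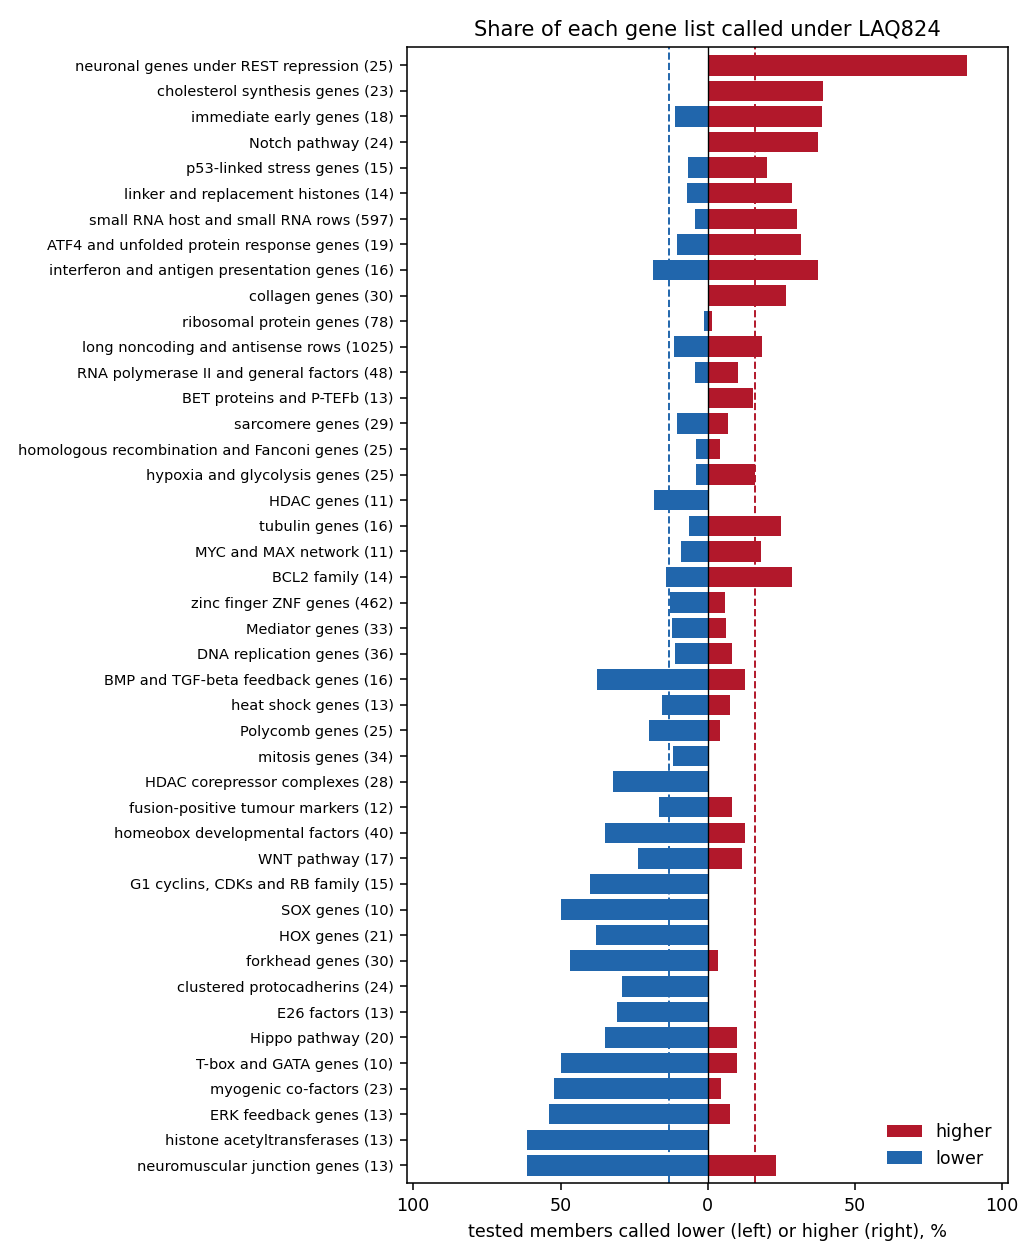
Percent of tested members called higher (red, to the right) or lower (blue, to the left) for every list with at least 10 tested members, ordered by median change from the top, with the number of tested members in parentheses; dashed lines mark the shares of all 14680 genes tested, 16.1% and 13.2%. The neuronal list reaches furthest to the right with 22 of 25, and the neuromuscular junction and histone acetyltransferase lists furthest to the left, each with 8 of 13.

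Neuronal genes that REST, the RE1-silencing factor, keeps off outside neurons had the highest share of tested members called higher. Of 35 genes in the list, 25 passed the filter, 22 were called higher and none lower, with a median change of 2.18. Of those 25, 14 were below 1 TPM in all DMSO columns and therefore passed only through LAQ824, so that the count is not free of the filter. Among the 11 with at least 1 TPM in 2 or more DMSO columns, 8 were called higher, with a median of 1.86. The 10 genes that did not pass stayed below 1 TPM in every column, among them NEFL and STMN2, at 0 and 0 TPM and at 0.207 and 0.211 TPM under LAQ824 and both listed at 0 in all DMSO columns.

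The genes called higher in this list encode vesicle proteins and filament proteins, among others. NEFH, the heavy neurofilament chain, stood at 13.9 and 13.7 TPM against 0.246, 0.0984, 0.351 and 0.199 TPM (log2 change 3.60 ± 0.099, adjusted p = 2.8e-06). SLC17A7, which loads glutamate into vesicles, stood at 19.8 and 23.6 TPM against 1.02, 0.738, 1.15 and 1.16 TPM (3.49 ± 0.12, adjusted p = 4.4e-06). INA, the alpha-internexin filament, stood at 63.8 and 59.2 TPM against 4.62, 4.94, 5.71 and 5.22 TPM (3.35 ± 0.079, adjusted p = 2.5e-06). For each of these 3 genes both LAQ824 values lay far above all 4 DMSO values. SYP, the vesicle protein synaptophysin, which overlaps an antisense entry, reached only 2.32 and 2.93 TPM from 0.250, 0.150, 0.0671 and 0.202 TPM. SYT5, a synaptotagmin, was listed at 0 in all 4 DMSO columns and stood at 3.14 and 3.95 TPM under LAQ824. There were 3 exceptions that did not pass the 2-fold threshold. KIF1A, an axonal motor, stood at 53.8 and 52.8 TPM against 38.5, 38.02, 41.3 and 40.96 TPM. STMN3, a stathmin, stood at 32.5 and 35.97 TPM against 32.7, 34.5, 35.9 and 38.9 TPM, and GAD1, which makes GABA, at 7.09 and 6.16 TPM against 9.77, 10.2, 8.93 and 9.07 TPM. REST itself fell from 38.2, 40.01, 38.1 and 40.4 TPM to 16.2 and 16.2 TPM (log2 change -1.22 ± 0.050, adjusted p = 6.9e-06), while its corepressor RCOR1 stood at 41.7 and 41.4 TPM against 41.2, 41.4, 40.9 and 40.8 TPM.

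**Figure D3:**
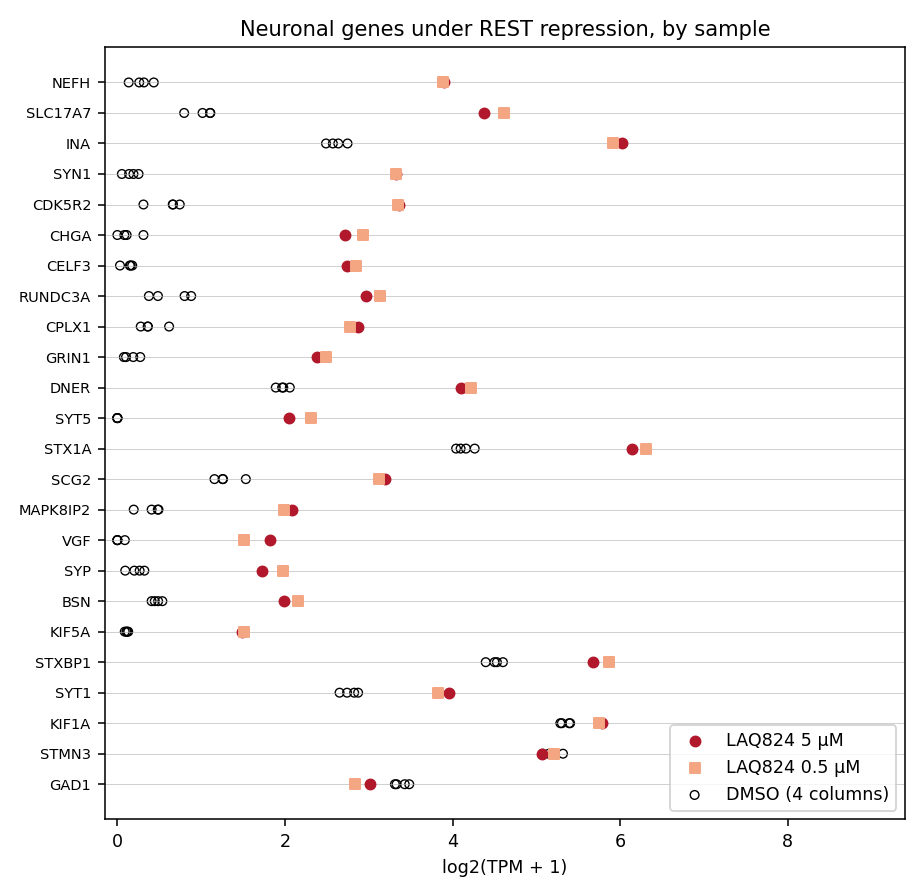
Level of 24 of the 25 tested neuronal genes, as log2(TPM + 1), in the sample at 5 µM LAQ824 (dark circles), the sample at 0.5 µM (squares) and the 4 DMSO columns (open circles), ordered by the size of the change. For 21 of the genes shown both LAQ824 points lie to the right of all 4 DMSO points by at least 1 on average, and KIF1A, STMN3 and GAD1 at the bottom were not called.

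The core of the element that REST binds, taken as CAGCACC, then any 2 bases, then GGACAG, was searched on both strands of the promoter windows, 250 bases before to 50 after the RefSeq transcript start, which were held for 11009 of the 14680 genes tested (RefSeq, GRCh38.p14). Exactly 4 of the 11009 genes (0.0363%) had it, and all 4 were called higher: the synapsin gene SYN1 (log2 change 3.16), the neuropeptide urocortin UCN (1.75), the dehydrogenase-like OGDHL (1.37) and TTC9B (1.32). With 1 mismatch allowed, 22 further genes matched, of which 6 were called higher, 12 were not called and 4 were called lower. Over all 11009 genes with a window, 1604 were called higher and 1531 lower, and the matches are too few to read a share from. The 4 exact matches are shown because they are all the promoters in which the letters occurred, each on the strand of its gene, with the match in capitals and a few bases around it; in TTC9B the match lies on the opposite strand.
SYN1, chrX:47620054-47620107, minus strand: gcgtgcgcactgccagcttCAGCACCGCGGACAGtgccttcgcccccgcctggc
UCN, chr2:27308583-27308637, minus strand: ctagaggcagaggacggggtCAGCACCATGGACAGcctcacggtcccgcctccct
OGDHL, chr10:49762405-49762459, minus strand: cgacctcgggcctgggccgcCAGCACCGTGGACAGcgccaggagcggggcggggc
TTC9B, chr19:40218346-40218372, minus strand: ggcgcgCTGTCCCCGGTGCTGatgctc
A match of letters is a description of the window and does not show that REST binds there.

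Most tested genes for the enzymes that write acetylation were lower. Of 13 histone acetyltransferases and acetylating coactivators tested, 8 were called lower and none higher, with a median of -1.29. EP300, which encodes p300, stood at 13.5 and 14.7 TPM against 60.2, 59.01, 57.00 and 57.5 TPM (log2 change -1.98 ± 0.061, adjusted p = 3.5e-06). CREBBP, its paralog CBP, stood at 23.9 and 25.4 TPM against 96.5, 96.05, 99.3 and 96.3 TPM (-1.94 ± 0.049, adjusted p = 2.6e-06). For both genes the values within each group lay close together. NCOA2, a nuclear receptor coactivator, fell as well (-1.81 ± 0.072).

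Most genes of the deacetylases themselves were not called. Of 11, 2 were called lower: HDAC7, a class IIa enzyme, from 125, 123, 133 and 129 TPM to 15.3 and 16.9 TPM (log2 change -2.91 ± 0.062, adjusted p = 2.2e-06), and the class I enzyme HDAC8, from 16.3, 15.1, 15.8 and 14.3 TPM to 6.26 and 6.37 TPM (-1.16 ± 0.068). The main nuclear class I enzymes did not pass the 2-fold threshold. HDAC1 stood at 289.8 and 308 TPM against 217 to 234 TPM under DMSO, HDAC2 at 101 and 104 TPM against 143 to 160.0 TPM and HDAC3 at 136 and 155 TPM against 83.1 to 96.1 TPM. Of 28 genes for the corepressor complexes that carry HDACs, 9 were called lower and none higher, with a median of -0.46. They included TBL1XR1 of NCoR/SMRT (-1.78 ± 0.063) and the NuRD subunits MBD3 (-1.70 ± 0.073) and CHD3 (-1.52 ± 0.045).

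Histone and Polycomb genes moved in both directions. H1F0, the linker histone of cells that leave the cycle, stood at 2120.3 and 2849.9 TPM against 453, 439.5, 438 and 444 TPM (log2 change 2.47 ± 0.13, adjusted p = 1.7e-05). H2AFY2, a macroH2A variant tied to silent chromatin, went from 85.8, 83.95, 91.7 and 88.8 TPM to 7.36 and 6.88 TPM (-3.45 ± 0.061, adjusted p = 1.9e-06). Of the 14 linker and replacement histones, 4 were higher and 1 was lower. Of 25 Polycomb genes, 1 was higher and 5 were lower, led by PHF19, a Polycomb partner that reads methylated H3 (-3.08 ± 0.054), and by the ring finger gene BMI1 (-1.58 ± 0.10), which overlaps a read-through entry. CBX7 was the 1 that rose (1.60 ± 0.088), and the methyltransferase EZH2 stood at 126 and 132 TPM against 113 to 123 TPM under DMSO.

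The clearest change among the general factors of transcription was that of GTF2B. GTF2B, the general factor TFIIB, stood at 326 and 319 TPM against 56.4, 62.2, 54.3 and 56.8 TPM (log2 change 2.47 ± 0.045, adjusted p = 1.9e-06), and all DMSO values lay far below both LAQ824 values. Of 48 genes for RNA polymerase II and its general factors, 5 were higher and 2 lower, with a median of 0.12. The next after GTF2B were the polymerase subunit POLR2L (1.43 ± 0.036) and the TFIIH helicase ERCC2 (1.37 ± 0.062), which overlaps KLC3. Of 33 Mediator genes, 2 were higher and 4 lower: MED26, which joins Mediator to elongation factors, rose (1.93 ± 0.069), whereas MED16 (-1.60 ± 0.076) and the kinase-module subunit MED12 (-1.48 ± 0.091) fell. HEXIM1, which holds the elongation kinase P-TEFb inactive, rose from 42.98, 43.5, 40.5 and 41.1 TPM to 126 and 129.9 TPM (1.58 ± 0.048), as did the elongation factor ELL2 (1.18 ± 0.060).

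In the MYC network, MYC fell from 62.6, 62.4, 62.9 and 69.7 TPM to 15.4 and 17.6 TPM (log2 change -1.91 ± 0.076, adjusted p = 6.4e-06). MXD1, a repressor that competes with MYC for MAX, rose from 3.01, 3.39, 2.33 and 2.59 TPM to 45.6 and 43.7 TPM (3.58 ± 0.11, adjusted p = 3.2e-06) and MXI1, another of that family, rose by 1.89 ± 0.059. The other 8 of the 11 network genes were not called, and the median of the list was -0.01.

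Among genes of the G1 phase, calls went both ways. Of 8 CDK inhibitor genes, 4 were higher and 2 lower. CDKN1A, which encodes p21 and is a classical responder to HDAC inhibition, stood at 97.7 and 93.98 TPM against 25.9, 24.9, 29.2 and 26.8 TPM (log2 change 1.81 ± 0.061, adjusted p = 4.0e-06). CDKN2D, which encodes p19, rose further (3.27 ± 0.089), and CDKN2B, which encodes p15 and overlaps CDKN2B-AS1, rose by 2.35 ± 0.093. Of 15 genes for G1 cyclins, their kinases, E2F and RB proteins, 6 were lower, none higher and 9 not called. CCND1, cyclin D1, fell from 44.9, 43.1, 52.3 and 53.4 TPM to 4.79 and 5.75 TPM (-2.98 ± 0.12, adjusted p = 6.1e-06). Its partner kinase CDK6 fell from 315, 325, 334 and 348 TPM to 56.1 and 56.2 TPM (-2.54 ± 0.044, adjusted p = 1.8e-06). In the later phases, 3 of 36 replication genes were higher and 4 lower, and of 34 mitosis genes 4 were lower and none higher, with medians of -0.21 and -0.42. Thymidine synthesis held a split pair, as TK1, thymidine kinase, rose by 1.58 ± 0.041 and TYMS, thymidylate synthase, which overlaps ENOSF1, had a log2 change of -1.52 ± 0.034. The mitotic kinase PLK1 (-1.84 ± 0.054) and the factor FOXM1 (-1.48 ± 0.050) fell, whereas CCNB1 stood at 284 and 289 TPM against 383 to 395 TPM. Of 25 genes of homologous recombination and the Fanconi pathway, only FANCM rose (1.43 ± 0.071) and only RAD51D fell (-1.42 ± 0.083), with BRCA1 at 48.97 and 49.4 TPM against 45.9 to 47.6 TPM.

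In the BCL2 family, 4 of 14 tested genes were higher and 2 lower. Among the 13 at 1 TPM or more in 2 DMSO columns, which leave out BIK, 3 were higher and 2 lower, with a median of -0.14. The 4 that rose encode BH3-only proteins, which promote cell death: BIK went from 0, 0.256, 0.171 and 0.258 TPM to 6.51 and 6.55 TPM (log2 change 2.69 ± 0.11, adjusted p = 7.1e-06). BBC3, also called PUMA, rose by 2.32 ± 0.080, PMAIP1, also called NOXA, by 1.91 ± 0.071 and BCL2L11, also called BIM, by 1.74 ± 0.052. The 2 that fell were the BH3-only gene BID (log2 change -1.69) and BCL2L1 (-1.44), which encodes the survival protein BCL-XL. BMF, another BH3-only gene, stood at 78.3 and 75.3 TPM against 103 to 108 TPM. Of 15 stress genes linked to p53, GADD45B (2.58 ± 0.071), SESN3 (1.74 ± 0.070) and ZMAT3 (1.50) rose while TP53I3 (-2.01 ± 0.055) fell, and CDKN1A is described above.

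Of 23 cholesterol synthesis genes tested, 9 were higher and none lower, with a median of 0.94, and no member passed the filter through LAQ824 alone. TM7SF2, a sterol reductase, stood at 89.3 and 91.6 TPM against 8.56, 7.39, 7.55 and 8.22 TPM (log2 change 3.36 ± 0.050, adjusted p = 1.6e-06). SREBF1, a master regulator of lipid synthesis, stood at 134 and 128 TPM against 30.4, 31.6, 36.5 and 36.9 TPM (1.93 ± 0.083, adjusted p = 8.1e-06), and MVK, mevalonate kinase, was at 91.6 and 87.2 TPM against 25.1, 29.4, 29.1 and 28.5 TPM (1.64 ± 0.053, adjusted p = 3.7e-06). TM7SF2 and SREBF1 overlap other entries. Of 19 genes of ATF4 and the unfolded protein response, 6 were higher, among them the stress sensor SESN2 (1.28 ± 0.071), and 2 lower, TRIB3 (-1.75 ± 0.069) and the cystine transporter SLC7A11 (-1.30 ± 0.11). Of 25 hypoxia and glycolysis genes, 4 were higher, led by the aldolase ALDOC (2.92 ± 0.11), and PGAM1 was lower (-1.02), a call that was lost against the DMSO columns of the LAQ824 flow cell alone (-0.86). Of the 3 metallothionein genes tested, MT1X rose (2.16 ± 0.13), MT3 was listed at 0 in all DMSO columns and stood at 2.46 and 1.39 TPM, and MT2A stood at 210.1 and 222 TPM against 163 to 203 TPM. Heat shock genes showed 1 higher and 2 lower of 13, the small chaperones CRYAB (-1.78 ± 0.11) and HSPB8 (-1.23 ± 0.092) being those that fell.

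In the signalling lists, feedback genes were lower more often than higher. Of 13 genes that ERK signalling turns on to restrain itself, 7 were lower and 1 higher, with a median of -1.04. SPRY2 fell from 80.6, 81.7, 88.8 and 89.8 TPM to 9.59 and 10.2 TPM (log2 change -2.98 ± 0.067, adjusted p = 2.4e-06), and SPRY1 (-1.62 ± 0.080) and SPRED2 (-1.48 ± 0.059) fell with it. Of 16 feedback genes of BMP and TGF-beta, 6 were lower and 2 higher: the BMP antagonist NOG (-3.47 ± 0.086) and the SMAD corepressor TGIF1 (-3.23 ± 0.045) fell. Of 17 WNT genes, 4 were lower, led by the secreted inhibitor DKK1 (-2.72 ± 0.15) and the nuclear effector LEF1 (-2.51 ± 0.13), and 2 were higher, led by NKD2 (2.48 ± 0.099). NKD2 passed the filter through LAQ824 alone, and among the 16 WNT genes at 1 TPM or more in 2 DMSO columns 4 were lower and 1 higher. Of 20 Hippo genes, 7 were lower and 2 higher. The coactivator YAP1 fell from 76.2, 77.3, 77.7 and 80.9 TPM to 14.96 and 15.5 TPM (-2.28 ± 0.050, adjusted p = 2.3e-06), along with AMOTL2, which binds it (-2.73 ± 0.11), and the TEAD cofactor VGLL3 (-2.32 ± 0.054), while CTGF, a usual YAP target, rose from 17.8, 19.3, 22.4 and 19.5 TPM to 69.8 and 86.5 TPM.

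In the Notch list and the immediate early genes, higher calls outnumbered lower ones. Of 24 Notch genes, 9 were higher and none lower, with a median of 0.81. However, 6 members passed the filter through LAQ824 alone, and among the 18 at 1 TPM or more in 2 DMSO columns 4 were higher and the median was 0.20. The members that rose most were low under DMSO: NRARP, a feedback inhibitor, stood at 10.6 and 9.495 TPM against 0.755, 0.465, 0.498 and 0.235 TPM (log2 change 2.90 ± 0.12, adjusted p = 8.1e-06), HES7 rose by 2.75 ± 0.11 and the ligand DLL4 by 2.30 ± 0.12. The well-expressed targets were not called, HES1 being at 71.6 and 67.5 TPM against 56.1 to 61.2 TPM and HEY1 at 20.3 and 18.96 TPM against 24.9 to 28.6 TPM, and the receptor NOTCH1 stood at 65.3 and 66.04 TPM against 59.7 to 66.1 TPM. Of 18 immediate early genes, 7 were higher and 2 lower, and among the 13 at 1 TPM or more in 2 DMSO columns, which leave out FOS, 3 were higher and 2 lower. FOS rose from 0.776, 0.678, 0.908 and 1.03 TPM to 24.8 and 23.9 TPM (3.78 ± 0.097, adjusted p = 2.6e-06), with the nuclear receptor NR4A1 (2.04 ± 0.089) and the zinc finger factor EGR1 (2.00 ± 0.082). Its dimer partner JUN fell from 376, 385, 376 and 392 TPM to 138 and 149 TPM (-1.40 ± 0.047, adjusted p = 3.9e-06), and FOSL2 fell too (-1.35).

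Families of developmental transcription factors were lower far more often than higher. Of 30 forkhead genes tested, 14 were lower and 1 higher, with a median of -0.71. Beside the core factor FOXF1, the steepest falls were in FOXA2, a factor of endoderm, from 12.4, 10.5, 12.5 and 10.00 TPM to 0.749 and 0.401 TPM (log2 change -2.97 ± 0.13, adjusted p = 9.0e-06), and in FOXL2, from 17.1, 14.6, 14.2 and 14.00 TPM to 1.96 and 1.25 TPM (-2.62 ± 0.15). The 1 that rose was FOXJ1, the master regulator of motile cilia, from 0.231, 0, 0.186 and 0.0932 TPM to 2.97 and 3.16 TPM. Of 40 other homeobox and paired-box factors, 14 were lower, led by DLX1 (-3.14 ± 0.091) and IRX6 (-2.55 ± 0.10), and 5 were higher, led by POU3F1 of neural and Schwann cells (3.05 ± 0.10). FOXJ1 and POU3F1 passed the filter through LAQ824 alone. Among the 27 forkhead genes at 1 TPM or more in 2 DMSO columns, 14 were lower and none higher. Among the 36 such homeobox and paired-box factors, 14 were lower and 3 higher.

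The HOX genes, which set position along the body axis, were lower in 8 of 21 and higher in none, with a median of -0.70, led by HOXB7 (-1.91 ± 0.066), HOXA3 (-1.64 ± 0.076) and HOXA4 (-1.61 ± 0.10). The SOX genes were lower in 5 of 10 and higher in none, led by SOX12 (-2.47 ± 0.052), and the list includes the core factor SOX8. Of 10 T-box and GATA genes, 5 were lower, led by TBX15 (-1.71 ± 0.046) and TBX18 (-1.50 ± 0.070), and TBX10 was higher (1.53 ± 0.22), its 2 doses standing at 1.54 and 2.88 TPM. TBX10 passed the filter through LAQ824 alone, and among the 9 members at 1 TPM or more in 2 DMSO columns 5 were lower and none higher. Of 13 E26 factors, 4 were lower, including ELF4 (-2.22 ± 0.071), ETV2 (-1.89 ± 0.12) and ELF1 (-1.27 ± 0.070). The large group of ZNF zinc finger genes stayed near the background for lower calls, with 59 of 462 lower and 27 higher, but single members moved far, ZNF668 (-3.31 ± 0.088) and ZNF362 (-2.94 ± 0.056) down and ZNF556 up (3.28 ± 0.10). Clustered protocadherins, adhesion genes that are each switched on by a promoter of their own, were lower in 7 of 24 and higher in none, led by PCDHB8 (-2.02 ± 0.064), PCDHB7 (-1.96 ± 0.069) and PCDHB16 (-1.70 ± 0.093). The protocadherin genes are near-identical in part, and the division of reads between them is uncertain.

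In the muscle lineage, all 6 core regulatory factors fell, MYOD1 to 71.05 and 75.1 TPM, and 12 of 23 myogenic co-factors were lower with 1 higher. PITX3 (-2.15 ± 0.040) and SIX2 (-2.04 ± 0.060) fell most among those co-factors, MEF2C stood just past the threshold (-1.03 ± 0.060), MEF2D stood at 17.6 and 19.2 TPM against 19.5 to 23.2 TPM, and ID2, an inhibitor of MYOD1-type factors, rose from 15.1, 19.04, 15.6 and 16.2 TPM to 67.2 and 72.3 TPM (2.02 ± 0.061). Of 13 neuromuscular junction genes, 8 were lower and 3 higher. Those that fell included the receptor and its clustering machinery: CHRNA1, the acetylcholine receptor alpha subunit, from 723, 731, 746 and 749 TPM to 246 and 228 TPM (-1.63 ± 0.046, adjusted p = 3.0e-06). RAPSN, which anchors it (-2.22 ± 0.052), and DOK7, the activator of MuSK (-3.13 ± 0.079), fell as well. The 3 that rose encode proteins of the synaptic cleft: COLQ, the collagen tail of the esterase, from 1.89, 2.14, 3.13 and 2.63 TPM to 19.1 and 19.6 TPM (2.57 ± 0.13, adjusted p = 1.4e-05), and the esterase gene ACHE from 3.04, 2.93, 3.700 and 3.495 TPM to 16.1 and 16.3 TPM. Agrin, AGRN, went from 91.9, 92.6, 100.3 and 99.8 TPM to 231 and 260.1 TPM.

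Few genes of the contractile apparatus were called. Of 29 sarcomere and muscle structure genes tested, 3 were lower and 2 higher, with a median of 0.08. CAV3, the muscle caveolin (-3.23 ± 0.075), and ACTC1, the cardiac actin (-2.89 ± 0.062), fell, with MYBPH (-1.42), whereas TNNI3 and ACTN2 (1.11) rose. TNNI3 passed the filter through LAQ824 alone. TNNT1, the slow troponin T, stood at 953 and 984 TPM against 1420.4 to 1497 TPM, and MYL4, the embryonic light chain, at 93.4 and 95.2 TPM against 166 to 196 TPM, both lower in every LAQ824 value but under 2-fold. Of the 12 FP-RMS markers, TFAP2B and PIPOX (-3.42 ± 0.059) fell and CDH3 rose (1.34 ± 0.12), while FGFR4 stood at 628 and 705 TPM against 904 to 981 TPM and ALK at 28.01 and 29.1 TPM against 36.4 to 38.2 TPM. CDH3 passed the filter through LAQ824 alone.

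Of 16 tubulin genes tested, 4 were higher and 1 lower, with a median of 0.01. TUBA4A fell (-1.35 ± 0.053), and those that rose were TUBE1 (1.35 ± 0.060), which like TUBA4A overlaps other entries, and 3 beta-tubulins, the neuronal TUBB3 from 29.1, 29.99, 31.7 and 30.6 TPM to 175 and 172 TPM (log2 change 2.48 ± 0.045, adjusted p = 1.9e-06), TUBB2A by 2.45 ± 0.076 and TUBB2B by 2.38 ± 0.049, whereas TUBA1A stood at 501 and 495 TPM against 478 to 523 TPM. TUBB2A and TUBB2B are near-identical paralogs, so their split is uncertain. Of 30 collagen genes, 8 (26.7%) were higher and none lower, led by COL20A1 (1.85 ± 0.14), COL26A1 (1.82 ± 0.19) and COL5A3 (1.62 ± 0.070). The median DMSO level of the list was 4.98 TPM, and 24.2% of all tested genes between 1 and 5 TPM were called higher, a share close to that of the list. Among the 28 collagen genes at 1 TPM or more in 2 DMSO columns, 6 were higher, with a median of 0.24. Of 16 interferon and antigen presentation genes, 6 were higher, led by IRF7 (2.74 ± 0.069) and IFI27 (2.11 ± 0.11), and 3 were lower, led by IFI44 (-1.58 ± 0.057). The other 24 of the 40 genes on that list were not tested, and HLA-E and TAP1 were listed at 0 in all 6 columns, from which no level is read.

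Most genes in the marker lists of other cell types were below 1 TPM in both groups. Of 20 blood cell genes, 13 stayed below 1 TPM in all 6 columns, and the summed level of the list was 150.0 and 155.9 TPM under LAQ824 against 40.8 to 45.6 TPM under DMSO. That difference came mainly from CORO1A, a coronin of leukocytes, at 124 and 127 TPM against 18.1, 17.3, 18.4 and 18.1 TPM, a row that overlaps 11 other entries. CD14, a monocyte surface protein, rose from 1.09 to 1.94 TPM to 9.73 and 9.79 TPM. Of 17 liver genes, 12 stayed below 1 TPM, and the list summed to 131.7 and 128.0 TPM against 48.0 to 51.3 TPM, mainly through the apolipoprotein APOE at 123 and 119 TPM against 40.7 to 45.3 TPM. ALB stood at 2.804 and 2.81 TPM against 0.203 to 0.436 TPM and AFP went from 2.59 to 3.43 TPM to 0.515 and 0.437 TPM. Of 20 epithelial genes, 13 stayed below 1 TPM and the sums overlapped, 160.8 and 175.9 TPM against 166.9 to 189.6 TPM, although the tight junction gene CLDN4 (3.47 ± 0.087), the factor GRHL1 (3.07 ± 0.081) and CDH3 rose. CLDN4 and CDH3 passed the filter through LAQ824 alone. Among the 5 epithelial genes at 1 TPM or more in 2 DMSO columns, 1 was higher and none lower, with a median of -0.25. Of 14 endothelial genes, 9 stayed below 1 TPM, with sums of 115.7 and 111.4 TPM against 87.2 to 97.6 TPM, and ROBO4 fell (-1.81 ± 0.15). Of 30 germline genes, 26 stayed below 1 TPM, and REC8 (1.77 ± 0.081), which overlaps IPO4, and TEX15 (1.49 ± 0.096) rose. EPCAM and PECAM1, which define epithelial and endothelial cells, were near 0 as given above, unlike the members that carry the sums of the epithelial and endothelial lists.

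The 2 doses, 10-fold apart, differed by a small amount that was larger than counting noise. The variance of their difference was 5.99 times that of counting noise over 11498 genes. Between the DMSO concentrations the ratio was 3.43 over 10378 genes, taken over 4 libraries of lower depth rather than 2. Such a ratio depends on depth, so these 2 ratios do not measure which difference was larger. The median size of the difference between 5 and 0.5 µM was 0.085 on the log2 scale, against 0.060 between the DMSO concentrations averaged over flow cells and 0.071 between the single DMSO columns of the LAQ824 flow cell. A difference of 2-fold or more was seen for 161 genes, 80 of them higher and 81 lower at 5 µM, beside 133 and 105 between those single DMSO columns. Of the 161, 148 were small RNA rows, and only 1 of the remaining 13, LOC105376306, had at least 50 reads at a dose, with 25 at 5 µM and 74 at 0.5 µM. Among the genes called higher, 992 of 2357 (42.1%) were further from DMSO at 5 µM, with median changes of 1.43 at 5 µM and 1.47 at 0.5 µM. Among those called lower, 1001 of 1931 (51.8%) were further at 5 µM, with medians of -1.43 and -1.41. No p-value is given, because each dose was 1 sample.

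**Figure D4:**
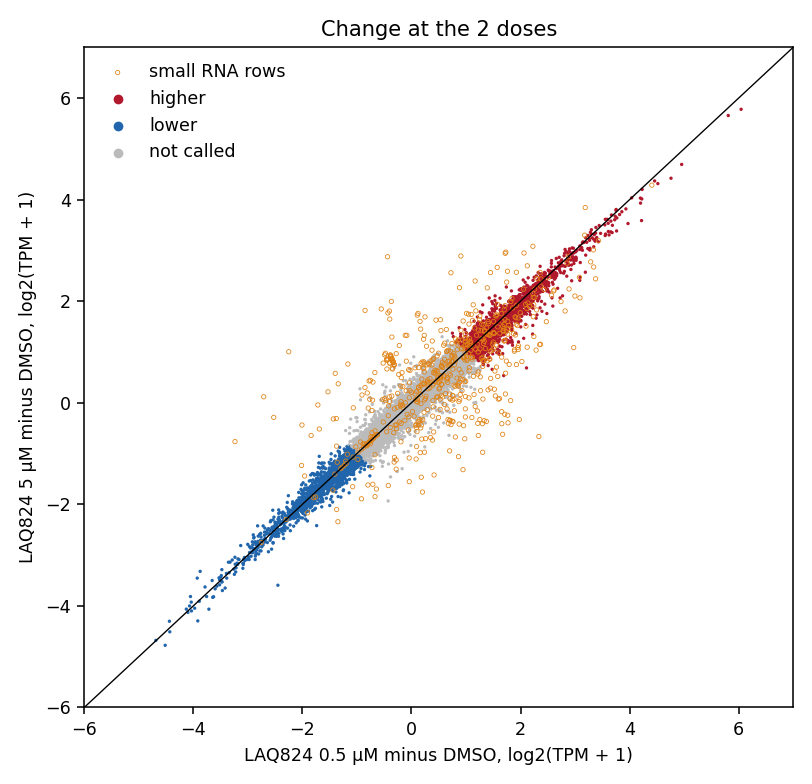
Change of each tested gene against DMSO on the log2(TPM + 1) scale at 0.5 µM LAQ824 (horizontal axis) and at 5 µM (vertical axis), with genes called higher in red, lower in blue, others in grey, small RNA rows as open orange circles, and the line of equal change in black; both axes share the DMSO columns. Genes lie along the line, and most points that leave it by 1 or more are small RNA rows, which make up 148 of the 161 genes apart by 2-fold.

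MC1568, which the labels assign to HDAC4/5, ran on the same flow cell at 10 and 1 µM and gives a comparison that uses no DMSO column, with the reservation that its doses differ from those of LAQ824. Under LAQ824, 1175 genes (8.00%) were higher and 2843 (19.4%) lower than under MC1568, so 29.2% of the calls were higher. The median over all genes was -0.21, and after median-ratio scaling, which moved it to -0.08, the counts were 1528 and 2360 and the share 39.3%. Of 25 neuronal genes, 17 were higher than under MC1568 and 2 lower, but of 23 cholesterol synthesis genes only 2 were higher and 1 lower. Of 24 Notch genes 4 were higher and 3 lower, and of 30 collagen genes 2 were higher and 3 lower. BAIAP3 stood at 3.12 and 1.19 TPM under MC1568 and PLIN5 at 6.87 and 2.61 TPM, both far below their LAQ824 levels (log2 differences 4.90 and 3.82). Both lay above their DMSO means of 0.485 and 0.424 TPM. GTF2B stood at 59.4 and 54.4 TPM and H1F0 at 536 and 508 TPM, which lie close to their DMSO values, and both were called higher under LAQ824 (2.49 and 2.23). EP300 stood at 49.2 and 52.9 TPM and HDAC7 at 116 and 129 TPM, and both were called lower under LAQ824 than under MC1568 (-1.79 and -2.85). KIF1A stood at 97.7 and 67.2 TPM and STMN3 at 92.6 and 65.4 TPM under MC1568; STMN3 was called lower under LAQ824 and KIF1A was not called. CDKN1A at 65.7 and 42.8 TPM and SREBF1 at 75.2 and 62.6 TPM lay between DMSO and LAQ824 and were not called between the 2 compounds.

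In the remaining 38 samples of the screen, larger changes under LAQ824 were matched less often. Part of this is built in, because the genes were grouped by the same LAQ824 values that were then ranked. Of the 77 genes raised 8-fold or more, 66 were higher in both LAQ824 samples than in any of the 38 others, and of the 60 lowered 8-fold or more, 45 were lower than in any other. Over all called genes the shares were 47.5% of those higher and 44.1% of those lower, so that more than 50% were matched or passed by another sample. WT161 at 10 µM, which the labels assign to HDAC6, was the most extreme of the 38 in the direction of the change for 51 of the 77 and 37 of the 60 genes. Bromosporin at 10 µM, assigned to bromodomains, was so for 16 and 22. These counts include genes where the other sample matched or passed LAQ824. Over all genes called lower, bromosporin at 10 µM was the lowest of the 38 for 853 and WT161 at 10 µM for 744. Over all called higher, WT161 was the highest of the 38 for 1186 and bromosporin for 431. BAIAP3 reached 30.9 TPM under WT161 at 10 µM, the highest of the 38, and PLIN5 reached 26.4 TPM under bromosporin at 10 µM. EP300 was lowest among the 38 under WT161 at 10 µM, at 19.8 TPM, and HDAC7 under the same, also at 19.8 TPM. These are orders of levels with no test.

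Genes called higher were shorter than those called lower. The median gene body of protein-coding genes (hg19) was 22.0 kb among those called higher, 36.7 kb among those called lower and 29.5 kb among those not called. The share called lower rose from 12.4% below 5 kb to 20.1% between 100 and 200 kb and 17.9% at 200 kb or more, while the share called higher fell from 18.3% to 9.69%. Among genes with a mean level of 5 TPM or more, the shares called lower were 13.9% below 5 kb and 20.3% at 200 kb or more, and those called higher 13.2% and 8.64%.

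**Figure D5:**
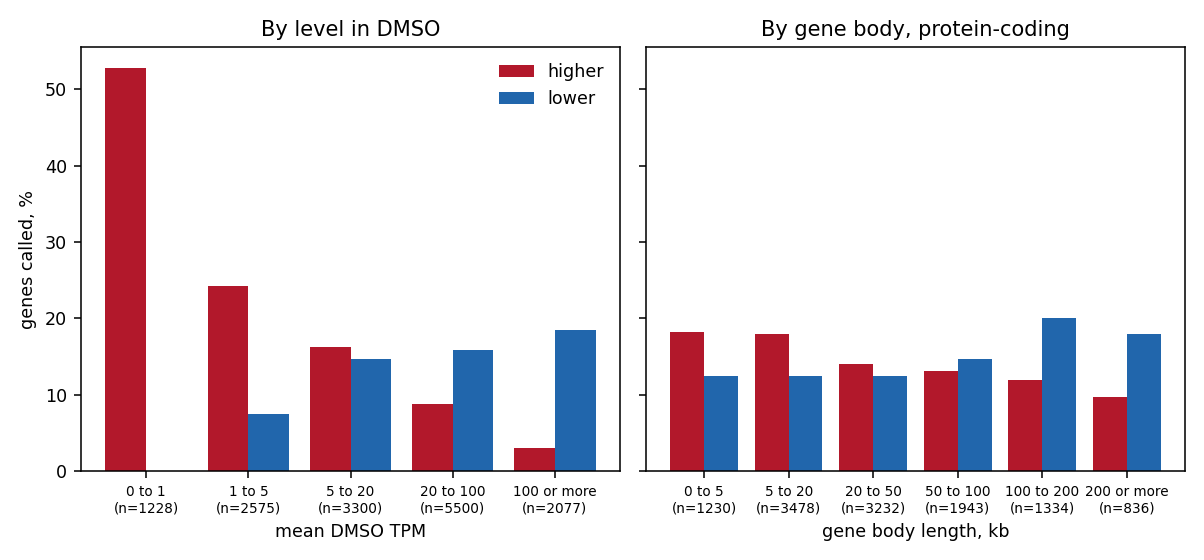
Percent of genes called higher (red) and lower (blue) under LAQ824, by the mean DMSO level in TPM (left, all genes tested) and by gene body length in kb (right, protein-coding genes), with the number of genes in each bin below the bars. The share called higher falls from 52.9% below 1 TPM to 3.03% at 100 TPM or more, and genes of 100 kb or more are called lower more often than higher.

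The letters CCAAT, searched on both strands, were present in the windows of 48.9% of genes called higher, 43.3% of genes not called and 38.5% of genes called lower, against 43.4% of all 11009. With only the first window of each gene, the shares were 42.8%, 37.0% and 30.4%. The GC box letters GGGCGG were in 77.6%, 76.1% and 74.7%. The E-box letters CAGCTG were in 23.3%, 22.4% and 24.2%. The TATA letters TATAAA were in 9.66%, 7.80% and 11.4%. These shares describe genes, which are not replicates, and carry no test. The promoters of 4 genes are printed from 250 bases before the transcript start, on the strand of the gene, because they belong to genes described above: ZNF556, MVK and REEP6 had the most CCAAT matches among the called genes the text names, and CDKN1A had none but 4 GC boxes. Capitals mark these 4 motifs on either strand.
ZNF556, chr19:2867085-2867334, plus strand: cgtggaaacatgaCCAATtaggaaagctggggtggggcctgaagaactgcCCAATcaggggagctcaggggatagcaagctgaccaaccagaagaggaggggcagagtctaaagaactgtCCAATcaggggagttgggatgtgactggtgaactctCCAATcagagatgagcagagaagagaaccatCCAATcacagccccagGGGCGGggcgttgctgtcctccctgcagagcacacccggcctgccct
MVK, chr12:109573544-109573793, plus strand: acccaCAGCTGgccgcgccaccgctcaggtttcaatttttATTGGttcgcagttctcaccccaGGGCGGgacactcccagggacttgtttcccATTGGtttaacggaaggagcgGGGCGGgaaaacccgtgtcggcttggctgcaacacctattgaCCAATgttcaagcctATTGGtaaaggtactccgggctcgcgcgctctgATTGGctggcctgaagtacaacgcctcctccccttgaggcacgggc
REEP6, chr19:1490931-1491180, plus strand: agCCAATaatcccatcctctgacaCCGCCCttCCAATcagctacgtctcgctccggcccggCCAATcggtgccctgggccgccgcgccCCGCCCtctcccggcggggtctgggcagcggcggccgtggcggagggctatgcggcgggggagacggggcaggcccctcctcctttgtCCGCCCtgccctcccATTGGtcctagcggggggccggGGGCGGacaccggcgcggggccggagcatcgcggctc
CDKN1A, chr6:36678464-36678713, plus strand: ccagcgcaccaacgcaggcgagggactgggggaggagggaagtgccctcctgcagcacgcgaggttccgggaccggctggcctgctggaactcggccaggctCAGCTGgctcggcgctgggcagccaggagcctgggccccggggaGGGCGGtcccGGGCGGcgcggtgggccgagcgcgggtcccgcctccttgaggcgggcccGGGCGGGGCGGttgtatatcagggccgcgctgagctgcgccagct
ZNF556 and MVK each hold 5 CCAAT matches and REEP6 holds 4 of them beside 4 GC boxes, yet the same letters also stand in promoters of genes that fell, with 2 in DBX1.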

How the data were processed

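RNA was poly-A selected and sequenced in pairs. Per the study's methods, the authors aligned reads to hg19 with STAR and computed TPM with RSEM on the UCSC annotation. The deposited TPM values came as 1 table of 27043 genes a sample, each summing to 1000000. Whether the deposited values are that RSEM output was not tested. TPM depends on what else a cell expresses, so that a change is relative to all other transcripts. Whole reads were recovered from the steps in the values (tolerance 0.005; 100% of rows with any value) and served only for depth and noise.

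The 6 columns were compared as log2(TPM + 1), with a pseudocount of 1, over genes at 1 TPM or more in at least 2 of them. The 2 columns of a DMSO concentration were averaged, since their variance over counting noise was 1.02 after a flow cell shift (10378 genes with 100 reads or more). limma 3.58.1 (R 4.3.3) with a trend and Benjamini-Hochberg adjustment was run on 2 LAQ824 samples against 2 DMSO samples, and on LAQ824 against MC1568. Calls needed an adjusted p below 0.05 and 2-fold. The test was checked on simulated data.

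Members and the 52 lists were chosen with earlier results of these data known, and lists carry no test of their own. Genes named were the key members of each list, its 3 largest called changes, the 12 highest and 12 lowest changes over all genes, and members of lists counted at 5 or fewer. Other genes were named after their values were seen: SYT5, KIF1A, STMN3, GAD1, NEFL, STMN2, NOTCH1, FOXJ1, CTGF, ACHE, AGRN, DES, CDH15, PTPRC, EPCAM and PECAM1. Alternatives changed the DMSO columns, block, pseudocount, scaling, filter, trend and samples. Promoter sequences came from RefSeq (GRCh38.p14). Samples outside the screen were not analysed here, and a few genes that the rule names are not reported here.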

Additional observations from a re-analysis of the deposited data

How the results depend on the processing

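Over the alternatives run, the counts of genes called higher and lower under LAQ824 stayed within 1.5 times of 2357 and 1931, except that 1424 were higher among the 11170 genes with a mean TPM of at least 5, where fewer low genes were tested and 46.1% rather than 55.0% of the calls were higher. With 1 sample left out, the counts ran from 2291 to 2426 higher and from 1912 to 1963 lower, and against MC1568 from 1030 to 1440 and from 2750 to 2994; the lone sample is then assumed to vary like the other group. LAQ824 labels carry no replicate number, and the number of a DMSO column marks its flow cell: a replicate block for flow cell gave 2301 higher and 1924 lower, and a replicate block for dose level gave 2363 and 1934. With the DMSO columns of the LAQ824 flow cell alone, 2227 of the 2357 higher and 1861 of the 1931 lower genes were called again. The genes apart by 2-fold between doses numbered 290 with a pseudocount of 0.1 (the cause was not tested) and 20 among genes with a mean TPM of at least 5, against 161.

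Of 2990 values of named genes under an alternative, 2975 stayed on their side of the threshold, and no called gene changed direction. MEF2C lost its call under median-ratio scaling (-0.98) and without the 0.1% DMSO sample (-0.96), EGR1 lost it in the fit of all 44 screen samples (adjusted p = 0.113, limma) and CDKN1C gained one with a pseudocount of 0.1 (-1.24). RPS10 lost its call with the DMSO columns of the LAQ824 flow cell, at 0.86 in place of 1.25. PGAM1, just past the threshold, lost it there and under the flow cell block (-0.86 in both), under median-ratio scaling (-0.97) and without the 5 µM sample (-0.999), and ACTN2 lost it without the 0.2% DMSO sample (0.99). The medians of 8 of the 52 lists changed sign under some alternative, all of them lists with a median near 0. Depth limits the small RNA rows, where a difference of 2-fold could rest on fewer than 10 reads.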

Other observations

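Small RNA rows, which in poly-A libraries can count reads of host transcripts, were higher more often than lower: 180 of 597 were called higher and 26 lower, with a median of 0.56. Among the 477 at 1 TPM or more in 2 DMSO columns, 127 were higher and 26 lower, with a median of 0.53. The median DMSO level of the list was 2.95 TPM, and 24.2% of all tested genes between 1 and 5 TPM were called higher. Of 176 snoRNA rows, 47 were higher and none lower, and of 224 microRNA rows 68 were higher and 14 lower. MIR5010 stood at 27.8 and 30.4 TPM under LAQ824 (35 and 45 reads) against 0, 0, 1.36 and 1.03 TPM under DMSO. MIR1539, listed at 0 in all DMSO columns, passed the filter through LAQ824 alone, at 13.4 and 8.11 TPM, which rest on 7 and 5 reads. Among 1025 long noncoding and antisense rows, 190 were higher and 117 lower, but among the 840 at 1 TPM or more in 2 DMSO columns 109 were higher and 117 lower, with a median of -0.05. The deepest falls after LOC101929504 were IGF2-AS (-3.79 ± 0.073), which overlaps IGF2, and LINC00689 (-3.71 ± 0.076).

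The X chromosome differed from the autosomes in its balance of calls, with 32 of 432 genes (7.41%) higher and 89 (20.6%) lower, against 16.1% and 13.2% over all genes. Chromosome 22 stood at the other end, with 22.8% of 360 genes higher and 11.4% lower. Among adjacent protein-coding genes, a gene next to one called higher was itself called higher in 19.7% of cases, against 14.9% over all members of such pairs, and in 23.4% against 17.9% where the gap was under 10 kb. Next to a gene called lower the shares were 18.4% against 14.4%. Runs of 5 consecutive genes called the same way were found in 5 places, among them PIGB, PYGO1, PRTG, NEDD4 and RFX7 on chromosome 15, all lower, and ACOT7, HES2, ESPN, TNFRSF25 and PLEKHG5 on chromosome 1, all higher. These are descriptions over genes, and neighbours can share reads where they overlap.

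Of 78 ribosomal protein genes, 76 were not called, with a median of 0.26. RPS10 was called higher, but its DMSO level differed by flow cell, with 8.41, 13.9, 6.98 and 14.2 TPM, the lower values in the 2 columns of C4JM1ACXX and the higher ones in those of H144EBGXX, where LAQ824 stood at 25.3 and 27.3 TPM.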
